A study of Mus musculus with 4 samples.

Results

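The 10 genes described here act in the export of cholesterol from macrophages and in the handling of lipoproteins, and they are known target genes of the liver X receptor (LXR), genes that work beside these, and the gene of LXRα itself. They were chosen by name, as every non-control probe on the array that carried the gene symbol Abca1, Abcg1, Apoe, Apoc1, Apoc2, Pltp, Lpl, Mylip, Npc1 or Nr1h3. This gave 13 probes for 10 of the 23657 genes that the array named, with 1 probe for 7 genes and 2 probes for 3 genes (Lpl, Mylip and Nr1h3). All 13 probes were well above background on all 4 arrays.

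The arrays measured RNA from mouse bone marrow-derived macrophages (BMDMs) of C57BL/6J animals aged 10 weeks, grown for 6 days in medium with L929 cell supernatant, a source of M-CSF, and then stimulated for 2 days. There was 1 array for each of 4 conditions. Wild-type cells received IFN-γ (20 ng/ml) and LPS (100 ng/ml) to give M1 macrophages, or IL-4 (50 ng/ml) to give M2 macrophages. Cells of the genotype p18 (2400001E08Rik) -/-, an earlier name of Lamtor1, received the same IL-4, as did wild-type cells that were also given Torin1 (250 nM). Lamtor1 anchors the Ragulator complex to the lysosome membrane, where amino acids activate the kinase complex mTORC1, and Torin1 is an ATP-competitive inhibitor of mTOR. In this study Lamtor1 was deleted with floxed alleles and LysM-Cre, which is active in myeloid cells. The study describes 2 kinds of control, littermates with unrecombined floxed alleles and purchased wild-type mice, and the sources used here do not state which of them gave these arrays.

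LXRα, encoded by Nr1h3, and LXRβ are nuclear receptors that bind oxysterols and pair with retinoid X receptors on DNA. In macrophages loaded with cholesterol they switch on the transporters that pass cholesterol to lipoprotein particles, the apolipoproteins that accept it, and enzymes that remodel the particles. The sites to which the receptor pair binds are typically direct repeats of a short motif related to AGGTCA with a spacer of 4 bases. The questions were which of these genes were lower together when IL-4-stimulated macrophages lacked Lamtor1 or were treated with Torin1, and which were not.

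With 1 array per condition no difference could be tested, and no p-value is given. Array and condition cannot be told apart. The only error known is technical. Probes printed 8 or more times on each array gave a technical SD of a log2 ratio of 0.0878 for Lamtor1-deficient over M2, 0.0929 for Torin1-treated over M2 and 0.0997 for M1 over M2, and the scanner's own error for the member probes was 10.0% to 11.8% of the signal. Levels below are normalized signals, which are a probe's processed signal divided by the 75th percentile of all probes on its array. Apart from sums over markers and the order of probes by brightness, they were compared only between arrays for the same probe. All 3 ratios share the M2 array as their denominator. In RNA from a whole culture, fewer cells of a type and less RNA per cell cannot be told apart.

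Between 51.0% and 55.5% of the 55681 probes were well above background on each array, no spot was saturated, and the 75th percentile was 287 on the M1 array against 470.0 to 595 on the others. The Lamtor1 probe (chromosome 7, 109060334 to 109060393, build mm9) kept 2.34% of the M2 level on the Lamtor1-deficient array and differed by 0.18 (log2) on the Torin1 array. All 7 macrophage markers were well above background on every array. Their summed normalized signal was 690 in M2, 468 in Lamtor1-deficient, 543 in Torin1-treated and 404 in M1 cells. The brightest, Csf1r, carried much of this sum, and the markers went apart. By the brightest probe of each gene, 3 of 7 were at least 2-fold lower in Lamtor1-deficient cells and 2 after Torin1. Log2 ratios were -4.96 and -4.61 for Fcgr1 and -2.57 and -2.81 for Emr1 (F4/80) but 0.55 and 0.70 for Cd68. Other probes of Csf1r reached -1.86 and -2.14, where the brightest gave -0.44 and -0.27. Those of Itgam reached -2.34 and -2.81, where the brightest gave -0.81 and 0.15. The sum over 7 markers of IL-4-stimulated macrophages was 1710 in M2 cells against 725 to 837 on the other arrays. Mgl2 carried most of the M1 sum, with a log2 ratio of 1.13, while the other 6 were at least 2-fold lower there. Chi3l3, with 0.22 in both, carried most of the sums without Lamtor1 and with Torin1. There 6 and 4 of the 7 were at least 2-fold lower. Over 7 markers of M1 macrophages the sum was 2000 in M1 cells, 58.5 in M2 cells, 95.2 without Lamtor1 and 168 with Torin1. Without Lamtor1, 3 of these were at least 2-fold higher and 2 lower. With Torin1, 3 were higher and none lower. Of these 7, 4 were well above background on all arrays.

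Sequences are shown for the genes on which the results turn. The first is a probe of Lpl, which was printed because Lpl had the lowest ratios of the members after Torin1 and in M1 cells and a pair of probes to compare. It matches chromosome 8, 71425050 to 71425109, of mm9. The others are the 120 bases before the start of Abca1 and of Pltp, 2 genes that were lower in all 3 comparisons, from RefSeq on GRCm38.p6 (Abca1, chr4:53159896-53160015, minus strand; Pltp, chr2:164857709-164857828, minus strand). Capitals mark a match to the repeat described in the next paragraph.
Lpl probe: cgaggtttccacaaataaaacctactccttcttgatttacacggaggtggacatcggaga
Abca1: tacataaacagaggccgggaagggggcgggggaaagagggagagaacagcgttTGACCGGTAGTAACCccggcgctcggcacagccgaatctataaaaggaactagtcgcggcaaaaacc
Pltp: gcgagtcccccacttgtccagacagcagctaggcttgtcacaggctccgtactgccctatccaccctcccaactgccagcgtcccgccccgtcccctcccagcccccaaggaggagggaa

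A search of both strands for GGTNA, 5 bases of any kind and GGTNA again, a loose form of the repeat, found it in the RefSeq window of Abca1, where it reads GGTTACTACCGGTCA on the opposite strand and lies 67 to 53 bases before the start. Of all 32851 windows in the table, which run from 250 bases before to 50 after a start, 236 (0.718%) held these letters. Windows were given for 6 of the 10 genes (Abca1, Apoc2, Apoe, Mylip, Nr1h3 and Pltp, 9 windows in all), and Abca1 was the single gene among them with a match. The full repeat, AGGTCA, 4 bases of any kind and AGGTCA, was in 5 windows (0.0152%) and in none of these 6 genes. A match of letters is a description and not evidence of binding.

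Lpl, Pltp and Abca1 were at least 2-fold lower in both Lamtor1-deficient and Torin1-treated cells than in M2 cells, and Npc1 was at least 2-fold higher in both. Apoc1 and Apoc2 were 4.6-fold and 5.2-fold lower in Lamtor1-deficient cells but within 2-fold of M2 cells after Torin1. Apoe, Abcg1, Nr1h3 and Mylip were within 2-fold of M2 cells in both. Counted by the brightest probe of each gene, 5 of 10 members were at least 2-fold lower in Lamtor1-deficient cells, against 8.75% of all 23657 genes and 7.36% of the 12996 genes detected well above background on every array. After Torin1, 3 of 10 were lower, against 11.7% and 12.7%. The 3 genes that were lower in both stood against 5.23% and 4.51%. The members were chosen with earlier results of these data known, so these shares are a description and not a test. In the other direction the single gene Npc1 stood against 8.88% of all genes and 7.05% of the detected genes in Lamtor1-deficient cells, 14.3% and 11.6% after Torin1, and 3.85% and 3.32% in both, so that the share of members that were higher was near the background. The median log2 ratio of the members was -1.15 in Lamtor1-deficient cells, where that of all genes was 0.04, and -0.22 after Torin1, where it was -0.05. Shifting each array to its median, and not its 75th percentile, moved the share of 2-fold calls over all genes that were higher after Torin1 from 55.0% to 39.0%.

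**Figure D1:**
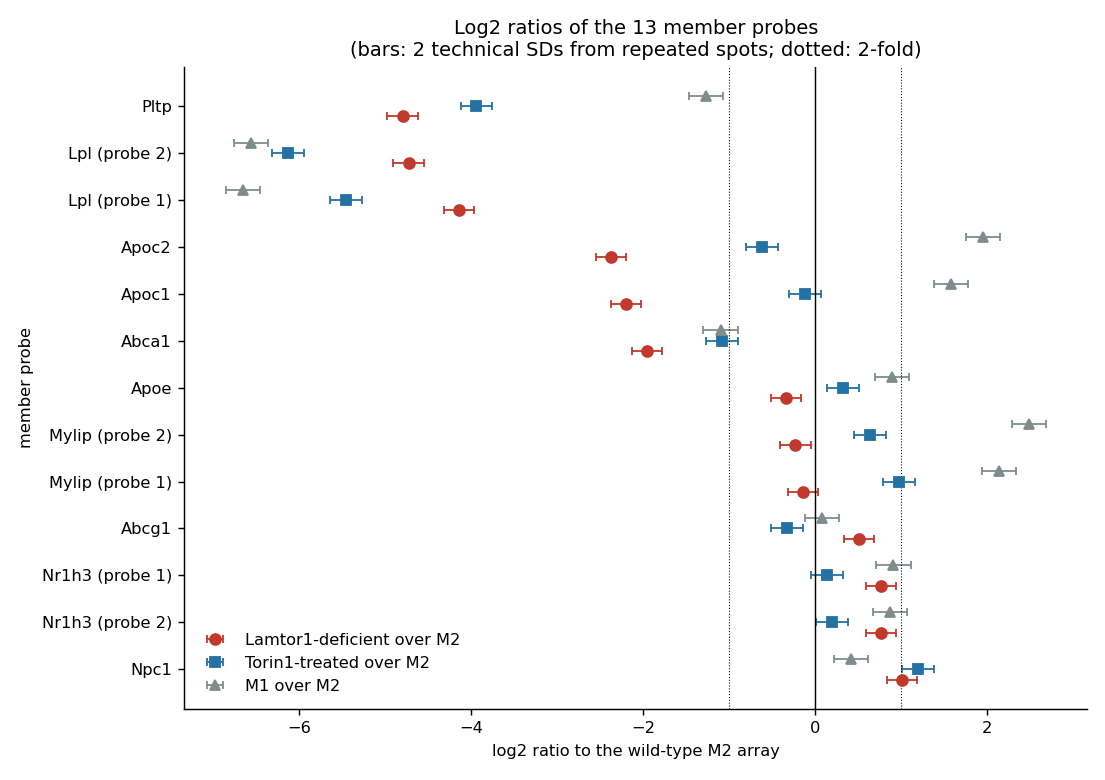
Log2 ratio to the wild-type M2 array (x axis) of the 13 member probes (y axis), for Lamtor1-deficient (circles), Torin1-treated (squares) and M1 (triangles) macrophages, with bars of 2 technical SDs from repeated spots and dotted lines at 2-fold; there is 1 array per condition. Lpl and Pltp lie far to the left after both treatments, while Apoc1 and Apoc2 are at -2.20 and -2.38 in Lamtor1-deficient cells and at -0.12 and -0.62 after Torin1; the signs of Apoe (Torin1 and M1), Nr1h3 (Torin1), Npc1 (M1) and Abcg1 (M1) turn under another scaling.

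Lpl encodes lipoprotein lipase, the secreted enzyme that releases fatty acids from the triglycerides of lipoproteins. It had the lowest ratios of the 10 genes after Torin1 and in M1 cells. In Lamtor1-deficient cells Pltp was lower (log2 ratio -4.80), but the second Lpl probe was close to it (-4.73). With quantile normalization that probe (-4.95) was below Pltp (-4.83). The first Lpl probe (A_51_P259296, chromosome 8, 71430267 to 71430326 of mm9) gave a normalized signal of 345 in M2, 19.6 in Lamtor1-deficient, 7.82 in Torin1-treated and 3.41 in M1 cells. The second probe (A_52_P257812, the sequence printed above) gave 125, 4.73, 1.80 and 1.33 on the same arrays. The M2 array was the highest and the M1 array the lowest for both probes.

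The first Lpl probe was 17.6-fold lower in Lamtor1-deficient cells (log2 ratio -4.14), 44.2-fold lower after Torin1 (-5.46) and 101-fold lower in M1 cells (-6.66). The second was 26.5-fold (-4.73), 69.8-fold (-6.13) and 94.6-fold (-6.56) lower. The probes start 2144 bases apart on the Lpl transcript, and they put the conditions in the same order. Their ratios differed by 0.59 in Lamtor1-deficient cells and by 0.66 after Torin1, which is several times the technical SD, and by 0.10 in M1 cells. Lpl was lower after Torin1 than in Lamtor1-deficient cells, by 2.51-fold with the first probe and 2.63-fold with the second. Among the 12996 genes well above background, Lpl ranked 34th from the lowest ratio in Lamtor1-deficient cells, 25th after Torin1 and 25th in M1 cells. Over the 7 alternative settings computed for each probe, its log2 ratio stayed between -4.95 and -4.07 in Lamtor1-deficient cells and between -6.37 and -5.38 after Torin1. In M1 cells it ran from -7.48, with the median shift, to -6.44.

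Markers of neutrophils moved with Lpl. The array named 4 of the 6 markers listed (Mpo, Camp, Ngp and Ltf), and all 4 were at least 2-fold lower than in M2 cells on each of the other arrays. Their summed normalized signal was 10.5 in M2 cells and 0.67 in Lamtor1-deficient, 0.355 in Torin1-treated and 0.443 in M1 cells. Ngp and Ltf were not well above background in M1 cells. For markers of adipocytes, a cell type rich in Lpl, the sum was 58.5 on the M2 array, 319 without Lamtor1, 173 with Torin1 and 35.5 in M1 cells. Fabp4, which macrophages also express, made up nearly all of each sum. It was the single one of the 6 well above background on all arrays, and Plin1, Lep and Cfd were so on none. Fabp4 had log2 ratios of 2.43, 1.58 and -0.71 in the 3 comparisons, and Adipoq, which encodes adiponectin, 3.33 without Lamtor1 and -1.73 with Torin1. The sum of 6 fibroblast markers was 43.2, 55.9, 15.3 and 16.0 on the same arrays, and that of 6 lymphocyte markers 2.69, 2.42, 2.0 and 4.11. The part of such cells in the Lpl and Pltp ratios was not tested.

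**Figure D2:**
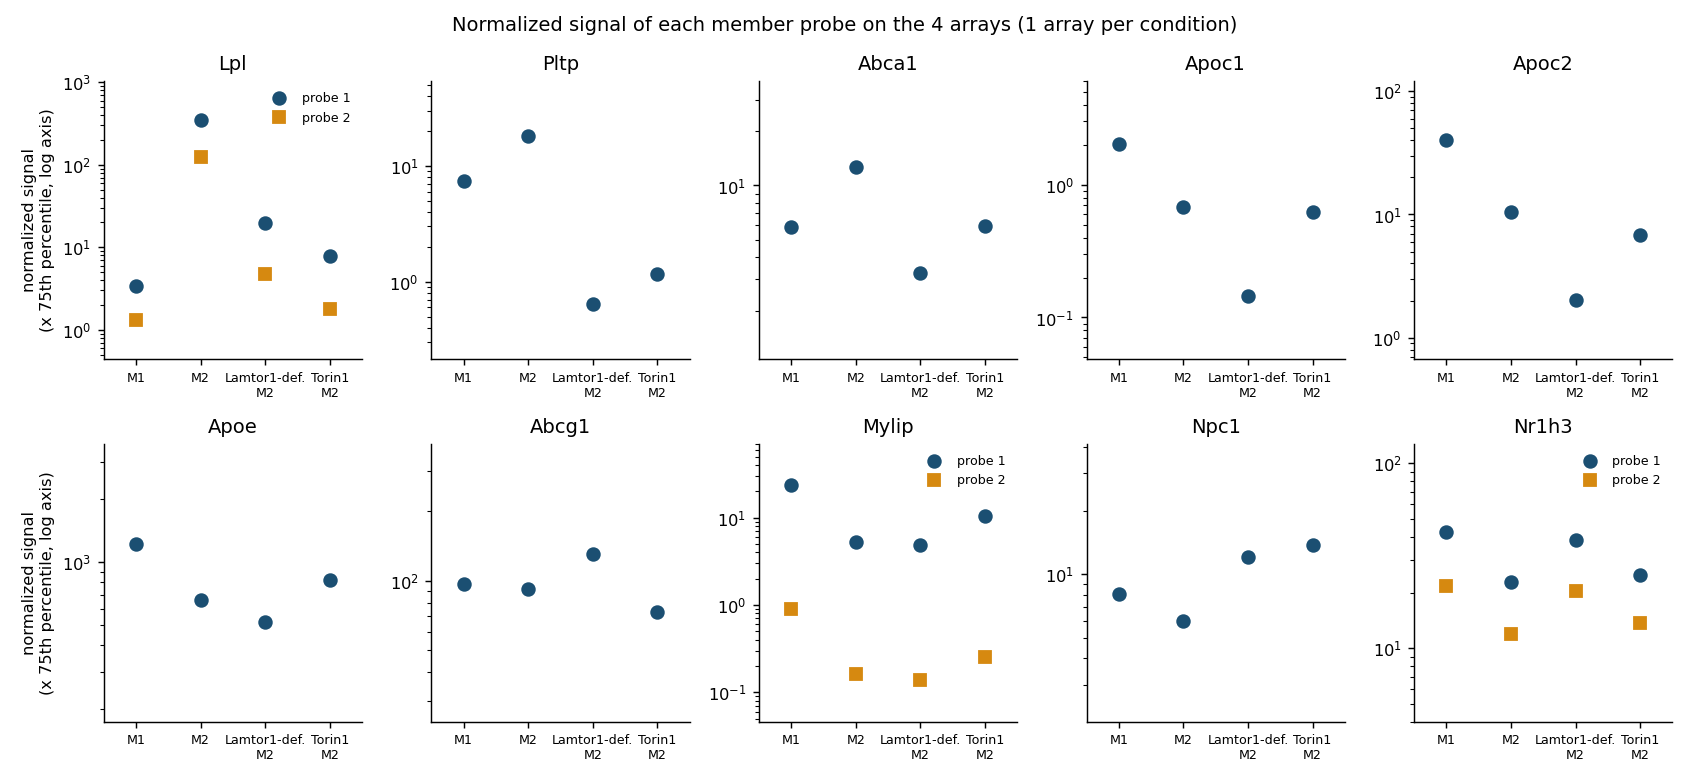
Normalized signal (processed signal over the array's 75th percentile, log axis) of each member gene on the M1, M2, Lamtor1-deficient M2 and Torin1-treated M2 arrays, with 1 point per probe and 1 array per condition. For Lpl, Pltp and Abca1 the M2 array is the highest, for Apoc1 and Apoc2 the Lamtor1-deficient array is the lowest (0.146 and 2.01), and levels should be compared within a panel and a probe only.

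Pltp encodes the phospholipid transfer protein, which moves phospholipids between lipoproteins in plasma. Its normalized signal was 18.0 in M2, 0.644 in Lamtor1-deficient, 1.17 in Torin1-treated and 7.45 in M1 cells (probe on chromosome 2, 164665022 to 164665081 of mm9). Pltp was 27.9-fold lower in Lamtor1-deficient cells (log2 ratio -4.80) and 15.3-fold lower after Torin1 (-3.94), and its rank from the lowest ratio was 21 and 93 of 12996 genes. The order of Pltp thus differed from that of Lpl in 2 ways. It was 1.82-fold higher after Torin1 than in Lamtor1-deficient cells, and M1 cells, in which Lpl was lowest, had 41.5% of the M2 level of Pltp.

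Abca1 encodes the membrane transporter that loads cholesterol and phospholipid onto lipid-poor apolipoprotein A-I, the first step of cholesterol export. The normalized signal of Abca1 was 12.7 in M2, 3.25 in Lamtor1-deficient, 5.97 in Torin1-treated and 5.89 in M1 cells (chromosome 4, 53043944 to 53044003 of mm9). It was 3.89-fold lower in Lamtor1-deficient cells (log2 ratio -1.96), 2.12-fold lower after Torin1 (-1.08) and 2.15-fold lower in M1 cells (-1.10). The Torin1 value lay close to the 2-fold line. With the 75th percentile taken over the probes well above background on all arrays it fell just short of 2-fold, and 2 genes, not 3, were then lower in both treatments.

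Abcg1, which exports cholesterol to mature high-density lipoprotein particles, did not follow Abca1. Its normalized signal was 92.0 in M2, 131 in Lamtor1-deficient, 73.3 in Torin1-treated and 97.0 in M1 cells. Abcg1 was thus 1.42-fold higher in Lamtor1-deficient cells (log2 ratio 0.51) and 1.25-fold lower after Torin1 (-0.33), both beyond 2 technical SDs and both within 2-fold. These signs held under the 7 alternatives. In M1 cells the ratio of 0.08 was within 1 technical SD of 0 and changed sign under 3 of them.

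Apoe, Apoc1 and Apoc2 encode apolipoproteins that macrophages secrete. Apolipoprotein E accepts cholesterol and binds lipoprotein receptors, apolipoprotein C-I is a small exchangeable protein of lipoproteins, and apolipoprotein C-II is the activator that lipoprotein lipase needs. The 3 genes lie close together on chromosome 7, and Apoc4, between Apoc2 and Apoc1, was not well above background on all arrays.

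The normalized signal of Apoc1 was 0.674 in M2, 0.146 in Lamtor1-deficient, 0.621 in Torin1-treated and 2.01 in M1 cells. That of Apoc2 was 10.5, 2.01, 6.84 and 40.4 on these arrays. For both, the Lamtor1-deficient array was the lowest and the M1 array the highest. Apoc1 was 4.6-fold and Apoc2 5.2-fold lower in Lamtor1-deficient cells (log2 ratios -2.20 and -2.38). After Torin1 the log2 ratio of Apoc1 was -0.12 and that of Apoc2 was -0.62. Set against each other, Torin1-treated cells had 4.24-fold more Apoc1 and 3.4-fold more Apoc2 than Lamtor1-deficient cells. Apoc1 was dim, with a processed signal of 78.5 on the Lamtor1-deficient array, and its ratio there was -1.50 with the normexp background correction.

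The Apoe probe was printed in 10 spots on each array and was the brightest member, with a normalized signal of 659 in M2, 519 in Lamtor1-deficient, 822 in Torin1-treated and 1224 in M1 cells. Spot by spot, the log2 ratio of Lamtor1-deficient over M2 cells ran from -0.41 to -0.27 (7 spots kept on both arrays), that of Torin1-treated cells from 0.29 to 0.33 (9 spots) and that of M1 cells from 0.86 to 0.95 (9 spots). Apoe was thus 1.27-fold lower in Lamtor1-deficient cells and 1.25-fold higher after Torin1, except that quantile normalization turned the Torin1 value to -0.13 and the M1 value of 0.89 to -0.21. Repeated spots on 1 array are technical, so this narrow range says nothing of how cultures vary.

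**Figure D3:**
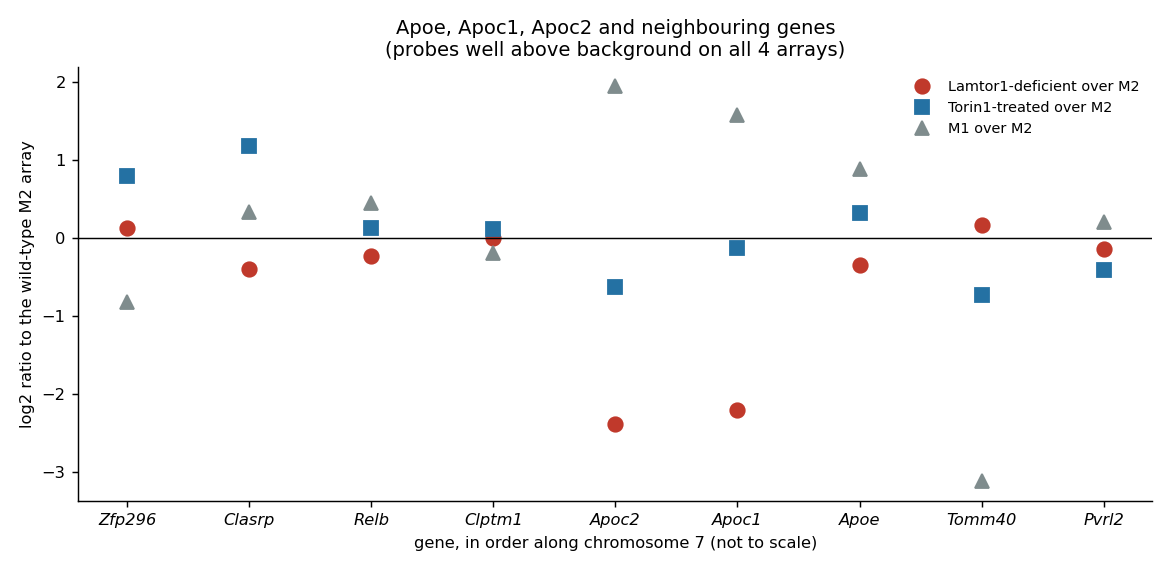
Log2 ratio to the wild-type M2 array (y axis) of Apoc2, Apoc1, Apoe and the neighbouring genes whose probes were well above background on all 4 arrays, in their order along chromosome 7 (x axis, not to scale), with 1 point per comparison. In Lamtor1-deficient cells (circles) Apoc2 and Apoc1 are below -2 while the plotted neighbours lie between -0.39 and 0.17; the Torin1 and M1 signs of Apoe turn under quantile normalization.

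Of the neighbouring genes well above background on all 4 arrays, none was 2-fold lower in Lamtor1-deficient cells as Apoc1 and Apoc2 were. Clptm1, next to Apoc2, had a log2 ratio of 0.00 there, Relb -0.23, Clasrp -0.39 and Zfp296 0.14. On the other side Apoe had -0.34, Tomm40 0.17 and Nectin2 (Pvrl2 on the array) -0.13. Among the dimmer neighbours, which were not well above background on every array, Apoc4 had -0.78, Bcam -1.44 (processed signals of 120 in M2 and 39.7 in Lamtor1-deficient cells) and Cblc 0.02. These neighbours were chosen after the values of the members were seen.

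Mylip encodes an E3 ubiquitin ligase, known as IDOL, that marks lipoprotein receptors for degradation. Its first probe gave a normalized signal of 5.29 in M2, 4.81 in Lamtor1-deficient, 10.4 in Torin1-treated and 23.4 in M1 cells, and its second 0.162, 0.138, 0.252 and 0.909. Both probes were lowest in Lamtor1-deficient and highest in M1 cells. In Lamtor1-deficient cells the log2 ratios of -0.14 and -0.23 were within 3 technical SDs of 0. After Torin1 they were 0.97 and 0.64. The first probe passed 2-fold with quantile normalization (1.09) and with the percentile of detected probes (1.06).

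Npc1 encodes the lysosomal membrane protein that passes cholesterol out of the lysosome. Its normalized signal was 6.02 in M2, 12.1 in Lamtor1-deficient, 13.8 in Torin1-treated and 8.07 in M1 cells. Npc1 was 2.01-fold higher in Lamtor1-deficient cells (log2 ratio 1.01) and 2.3-fold higher after Torin1 (1.20). Both values lay near the line, with a range over the alternatives from 0.94 to 1.07 and from 0.95 to 1.34. The ratio of the treatments was 1.14-fold.

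Nr1h3, the gene of LXRα, was not lower in either treatment. The first probe gave a normalized signal of 22.7 in M2, 38.7 in Lamtor1-deficient, 25.0 in Torin1-treated and 42.6 in M1 cells, and the second 12.0, 20.4, 13.7 and 21.8. Their starts lie 95 bases apart on the transcript, so the probes do not overlap but report the same end of it. Both were 1.71-fold higher in Lamtor1-deficient cells (log2 ratio 0.77). After Torin1 the log2 ratios were 0.14 and 0.20, and they were -0.11 and -0.05 when the arrays were shifted to their medians.

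**Figure D4:**
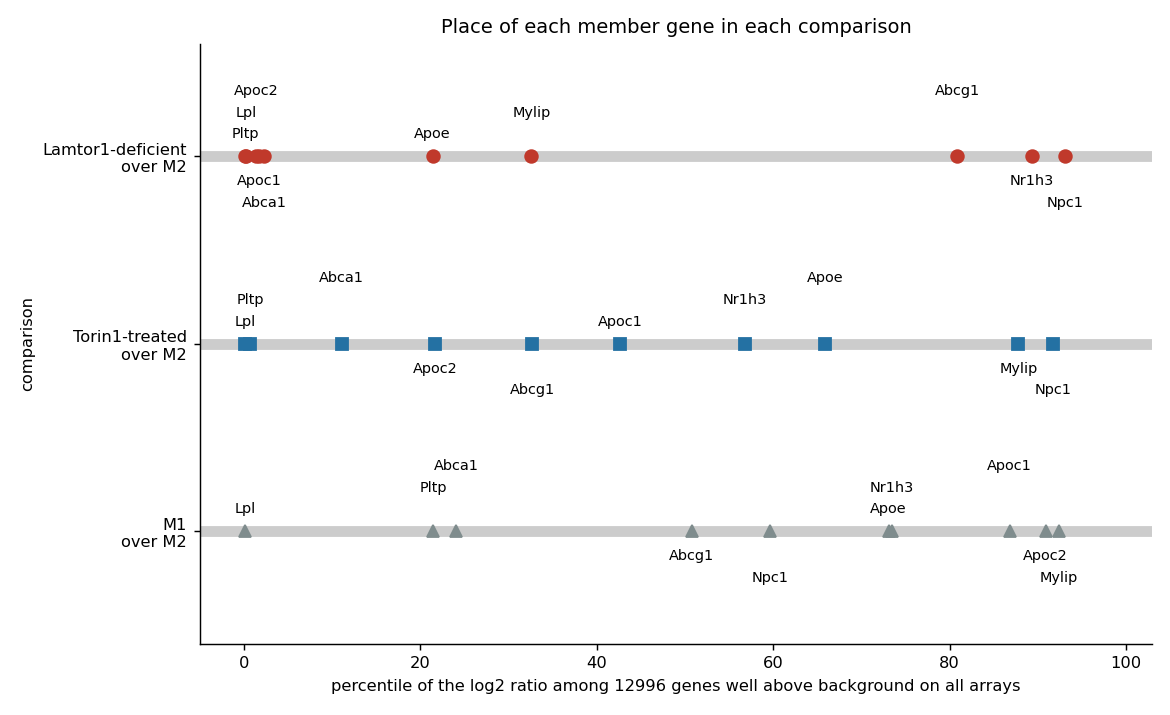
Percentile of each member gene's log2 ratio (x axis) among the 12996 genes detected well above background throughout, for Lamtor1-deficient, Torin1-treated and M1 over M2 macrophages (rows), with 1 point per gene by its brightest probe. In Lamtor1-deficient cells Pltp, Lpl, Apoc2, Apoc1 and Abca1 lie at or below percentile 2.32, after Torin1 only Lpl and Pltp do, and the remaining genes are spread up to percentile 93.1.

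M1 cells gave another pattern against the same M2 array. Lpl, Pltp and Abca1 were at least 2-fold lower (3 of 10 members, against 19.2% of all genes and 25.8% of those well above background) and Apoc1, Apoc2 and Mylip at least 2-fold higher (3 of 10, against 30.7% and 24.1%). Both shares were near the background. Apoc1 was 2.98-fold, Apoc2 3.86-fold and Mylip 4.42-fold higher by their brightest probes, and Nr1h3 1.88-fold. Npc1 had a log2 ratio of 0.42 there, and of -0.40 under the median shift. The median of all 23657 genes was 0.75 in this comparison and that of the genes well above background 0.04. Shifting the arrays to their medians lowered the log2 ratios (the median of all probes moved by -0.82). It brought Apoc1 to 0.76 and Nr1h3 from 0.91 to 0.09 and left Apoc2 (1.13) and Mylip (1.32) past 2-fold, and over all genes the share of 2-fold calls that were higher moved from 61.5% to 33.0%.

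Other genes of the pathway were counted by the same rule. Beside each list stand the shares over all genes, 8.75% lower and 8.88% higher in Lamtor1-deficient cells and 11.7% and 14.3% after Torin1. Of 11 genes for LXRβ, the retinoid X receptors and their cofactors, none was at least 2-fold higher in Lamtor1-deficient cells and 1 was higher after Torin1, with median log2 ratios of 0.00 and 0.45. Rxra, the RXRα gene, was higher after Torin1 by its brightest probe (1.37), but its other probe gave 0.24. The ratios of Ncoa3, a coactivator, were -0.39 and -0.86. Nr1h2, the gene of LXRβ, which was named after its values were seen, had 0.32 and 0.59.

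Of 9 genes that make, convert or respond to oxysterols, 1 was at least 2-fold lower and 2 higher in Lamtor1-deficient cells, and 3 were lower and 1 higher after Torin1 (medians 0.49 and -0.11). Of these, 5 were well above background on all arrays. Among the 5, none was lower and 1 higher in Lamtor1-deficient cells, and 1 was lower and 1 higher after Torin1. Ch25h, the cholesterol 25-hydroxylase that makes an LXR ligand, had a log2 ratio of 1.27 in Lamtor1-deficient cells and -0.11 after Torin1. Sult2b1, which sulphates sterols, had 0.81 and 1.32. Cyp27a1, the sterol 27-hydroxylase, was named after its values were seen. It had -1.87 and -1.15 and was not well above background in M1 cells.

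Of 15 other LXR target genes of macrophages, none was at least 2-fold lower and 2 were higher in Lamtor1-deficient cells, with a median of 0.24, while 5 were lower and 1 higher after Torin1, with a median of 0.01. The shares over all genes given above were 8.75% lower and 8.88% higher in Lamtor1-deficient cells, and 11.7% and 14.3% after Torin1. Scd2, a stearoyl-CoA desaturase, had log2 ratios of 2.50 without Lamtor1 and -5.62 with Torin1. Spp1, which encodes osteopontin, had 1.45 and -1.12. Cd5l, an inhibitor of macrophage apoptosis, had -0.51 and -3.81, and Abca7, a transporter related to Abca1, -0.85 and -2.14. Vegfa, a growth factor of blood vessels, had 0.72 and 2.69.

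Of 16 genes for lipoprotein uptake and lipolysis, 2 were at least 2-fold lower and 2 higher in Lamtor1-deficient cells, and 4 were lower and 4 higher after Torin1 (medians 0.08 and -0.24). Of these, 12 were well above background on all arrays. Among the 12, 2 were lower and 1 higher in Lamtor1-deficient cells, and 4 were lower and 2 higher after Torin1. Angptl4, a secreted inhibitor of lipoprotein lipase, was lower in both, as Lpl was (log2 ratios -1.71 and -1.02), but its ratio after Torin1 reached -0.93 over the other scalings. Scarb1, a receptor for high-density lipoprotein, had 0.65 and -1.21. Pnpla2, an intracellular triglyceride lipase, was higher in both (1.08 and 2.28), with 0.90 as the lowest value without Lamtor1 over the other scalings. Lrp1, a receptor for Apoe-bearing particles, had 1.79 after Torin1 by its brightest probe and 0.31 by its other.

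Of 13 genes for cholesterol inside the cell, none was at least 2-fold lower and 2 were higher in Lamtor1-deficient cells, and 1 was lower and 1 higher after Torin1 (medians 0.17 and 0.13). Npc2, the partner of Npc1 in the lysosome, had log2 ratios of 0.88 and 1.47. Soat1, which esterifies cholesterol for storage, had 1.89 and 0.66, and Osbpl1a, an oxysterol-binding protein, 1.82 and 0.95. Stard4, a carrier of cholesterol, had 0.22 and -3.08, and the ratios of Tmem97, a regulator of Npc1, were 0.86 and -0.46.

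Of 12 genes measured in a list of other apolipoproteins, which also held Lcat, an enzyme that esterifies cholesterol on lipoproteins, 4 (Apoa5, Apod, Apom and Lcat) were at least 2-fold lower and none higher in Lamtor1-deficient cells, and none was lower and 1 higher after Torin1, but 5 alone were well above background on all arrays. Apoa5, Apom and Lcat, which were not among these 5, were named after their values were seen. Among these 5, Apod was the single gene past 2-fold in either treatment, with a log2 ratio of -1.53 in Lamtor1-deficient cells and -0.10 after Torin1, and over the other scalings its ratio without Lamtor1 reached -0.88, within 2-fold. Saa3, an acute-phase apolipoprotein, had -0.70 and 0.51, and Clu (clusterin, or apolipoprotein J) 0.86 and -0.88. In M1 cells all 3 were past 2-fold (Apod 3.47, Saa3 5.60 and Clu -1.59), and Clu reached -0.57 over the other scalings.

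**Figure D5:**
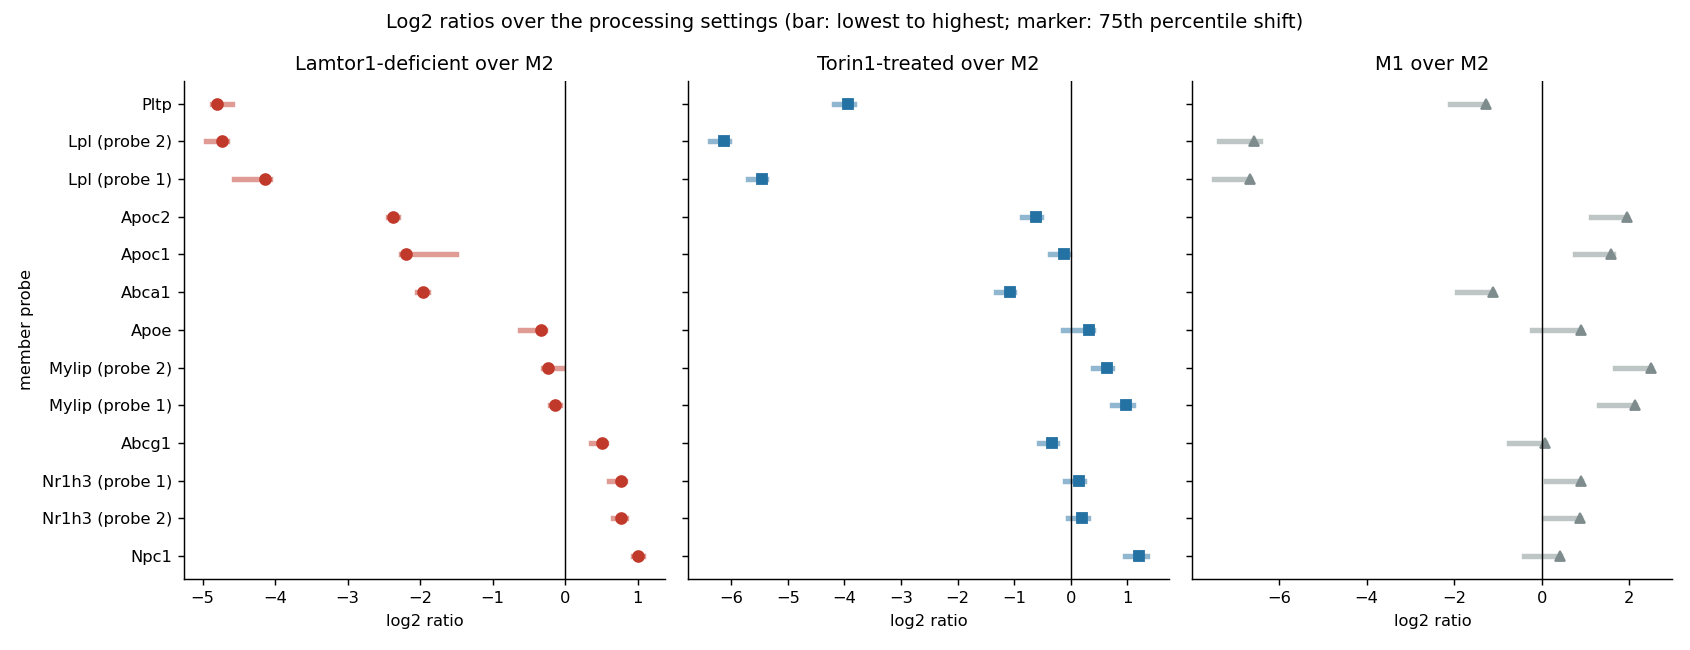
Range of the log2 ratio to the wild-type M2 array (x axis) of each member probe (y axis) over the 75th percentile shift (marker) and 7 alternative settings (bar, lowest to highest), in 1 panel per comparison. The bars are short beside the ratios of Lpl, Pltp, Apoc2 and Abca1 in Lamtor1-deficient cells, Apoc1 reaches -1.50 there, and bars that cross 0 belong to Apoe (Torin1 and M1), Nr1h3 (Torin1), Npc1 (M1) and Abcg1 (M1).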

How the data were processed

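Signals were read from the 4 scanner files. The authors labelled oligo-dT-primed RNA with Cy3, hybridised 1-colour Agilent whole mouse genome arrays and extracted spots with Agilent Feature Extraction (10.5.1.1 per the labels, 10.7.3.1 per the file headers). The deposited processed signals are intensities on a linear scale, background-corrected by that software, and the deposited series table holds the same intensities (largest difference 0.497%). In the study's methods, signals were raised to at least 1.0 and shifted to the 75th percentile, and M1, KO and Torin1 were each compared with M2. This was followed here. All signals were above 1.0.

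Control spots (3671 of 62976) and spots marked as outliers (170 to 226 per array) were left out, spots of a probe were averaged, and each array was divided by its 75th percentile. Ratios are on the log2 scale, computed from the deposited intensities. A gene was counted by its brightest probe, at 2-fold. No test was run, with 1 array per group. The technical SD came from 399 probes with at least 8 spots. The arithmetic of scaling and calling was checked on simulated data with technical noise only, which says nothing of dim probes or of the spread between cultures. Coordinates of probes follow the array annotation (mm9), promoter windows those of RefSeq (GRCm38.p6). RefSeq was used also for gene order on chromosome 7.

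In each pathway list at most 5 genes were named, those with the largest ratio in either treatment and well above background on all 4 arrays. Genes named outside this rule are marked. Some genes of these lists are not reported here. Members and lists were chosen with earlier results of these data known. Alternatives were the median shift, quantile normalization, the percentile over detected probes, normexp (limma 3.58.1, offset 50, R 4.3.3), a filter and a floor on dim probes, outlier spots kept, all probes of a gene averaged, a 3-fold threshold and the series table. Other steps used Python 3.11.15 with NumPy 2.4.6 and pandas 2.3.3.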

Additional observations from a re-analysis of the deposited data

Results flagged for a closer look

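Abcg1 and Apoe had ratios of opposite sign in the 2 treatments, each more than 2 technical SDs from 0. The log2 ratio of Torin1-treated over Lamtor1-deficient cells was -0.83 for Abcg1 and 0.66 for Apoe. Whether the treatments differ was not tested, since each had 1 array. The Apoe sign after Torin1 turned under quantile normalization, to -0.13, and that of Abcg1 held under all 7 alternatives.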

How the results depend on the processing

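No paired analysis was possible because each group had 1 array, and no array could be left out for the same reason. Of 273 alternative log2 ratios of member probes, 208 were within the technical SD of the reported value, 65 moved by more, 8 had the other sign, and none past 2-fold was reversed. Of 80 alternative counts of members, 66 stayed within 1.5 times and 14 moved. The count of members at least 2-fold higher in Lamtor1-deficient cells (1) became 0 with quantile normalization, with the percentile over detected probes, with normexp and at 3-fold. That after Torin1 (1) became 0 with the median shift and at 3-fold, and 2 with quantile normalization and with the percentile over detected probes. That in both (1) became 0 with the median shift, quantile normalization, the percentile over detected probes, normexp and at 3-fold. The count at least 2-fold lower in M1 cells (3) became 1 at 3-fold. At 3-fold the stricter line accounts for the lower counts. Elsewhere the cause was not tested, and Npc1 (1.01 and 1.20) and Mylip (0.97 after Torin1) lay near 2-fold. The median over members in M1 cells was -0.16 with the median shift, from 0.66. Relative to the 75th percentile shift, the median of all probes moved by -0.82 with the median shift and -0.87 with quantile normalization in M1 cells, and after Torin1 by -0.25 with the median shift, 0.26 with normexp and -0.11 with a floor. With 1 array per group the variation between cultures was not measured.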

Other observations

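The genes whose 3 log2 ratios were nearest to those of Lpl (Euclidean distance over 3 comparisons, 12986 genes outside the members) were Gatm, Sult1a1, S100a9, Stab2 and Tm7sf4, at distances from 1.14 to 1.93. Gatm, which makes the precursor of creatine, had ratios of -3.46 in Lamtor1-deficient, -5.13 in Torin1-treated and -7.51 in M1 cells. S100a9, which encodes a calcium-binding protein abundant in neutrophils, had -4.74, -4.77 and -5.57. Tm7sf4, the gene of the cell-fusion receptor DC-STAMP, had -3.24, -4.33 and -7.94. Nearest to Abca1 were Hsd17b13, Ifnab, Nos1ap, Iqgap2 and Dcakd, at distances from 0.22 to 0.44. All of these ratios share the M2 array, so an error of that array moves them together.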
